A study of Arabidopsis thaliana with 6 samples.

Results

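The genes described here are 10 components of the Arabidopsis small RNA pathways: the Dicer-like ribonucleases DCL1, DCL2, DCL3 and DCL4, the DCL1 partners HYL1 and SE, the methyltransferase HEN1, the Argonaute AGO1, and the pair RDR6 and SGS3. They were chosen by gene identifier as the core of small RNA production and silencing. The rule that chose them used no measured value, but it was written with earlier results of these data known. They are 10 of the 44200 features in the count table, and all 10 were among the 21606 features with enough counts to test. Dicer-like enzymes cut double-stranded RNA into small RNAs, HEN1 protects the ends of these by methylation, and AGO1 carries them to matching transcripts, which are then cleaved or translationally repressed. MicroRNAs are made in the nucleus by DCL1 with HYL1 and SE, whereas RDR6 and SGS3 turn selected single-stranded transcripts into double-stranded RNA from which DCL4, or DCL2 in its place, produces secondary and trans-acting siRNAs. DCL3 makes the siRNAs that guide DNA methylation.

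The study examined nuclear speckle RNA-binding proteins (NSRs), which take part in alternative splicing and bind non-coding RNAs, and asked what changes in the transcriptome when both are lost. The 2 groups were the nsra/b mutant, which carries a SALK T-DNA insertion in NSRa and a SAIL T-DNA insertion in NSRb, and its wild type background Col-0, with 3 libraries each. All seedlings grew in vitro in 16 h of light and 8 h of dark, were moved at 14 days to mock medium for 24 h and were harvested whole at 15 days. Polyadenylated RNA was sequenced as stranded read pairs of 100 nt. These ages and read lengths are those of the sample records, and the methods of the study give a younger age and longer reads. With 1 mutant line of each gene and no complemented line in these samples, an effect of the insertions and any other difference between the lines cannot be told apart. Auxin-treated and immunoprecipitated samples were not analysed here. Small RNAs are not retained by this library type, so every value below is the messenger RNA of a pathway component or a polyadenylated precursor, not a small RNA.

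The libraries held 25936176 to 30758283 counts in nsra/b and 27152846 to 32578330 counts in Col-0, and the members had between 237 and 7412 counts per library. Levels are given in CPM, which are counts divided by the library's total over the tested features and by its TMM factor, brought to a common scale. Replicates were close to each other, since edgeR's common biological coefficient of variation came to 0.0203. The methods call the replicates biological, but the labels do not say that they were separate cultures, and the p-values then measure the spread between these libraries only. For 1 gene, the exact permutation test (two-sided) of 3 libraries against 3 has 0.1 as its smallest possible p. The sources used here do not tie NSRa or NSRb to an identifier in the table, so the genotype labels could not be checked by the mutated genes, and the genotype names below are those of the labels. AT1G76940 and AT1G21320, an RRM family protein and a nucleic acid binding protein in the annotation, were set aside as the likely mutated genes. AT1G76940 had 4987, 5898 and 5577 counts in nsra/b and 396, 519 and 441 in Col-0, and AT1G21320 had 81, 78 and 88 counts in nsra/b and 17, 25 and 25 in Col-0. Both were thus higher in the libraries labelled nsra/b. If they are the mutated genes, it was not tested whether their counts rose in the mutant or the labels are exchanged. Exchanged labels would reverse every direction given below. Reads around the insertions were not analysed here.

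Among the members are known microRNA targets, DCL1 of miR162 and AGO1 of miR168, and both are thus in feedback loops on the pathway they serve. The mature sequences and the matching stretches of both transcripts are shown because they carry this link. They come from the RefSeq annotation of TAIR10.1, with capitals for the seed (bases 2 to 8 of the microRNA) and for the transcript bases that face it.
miR162a-3p: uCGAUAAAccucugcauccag
DCL1 site: cuggaugcagaggUaUUAUCGa
miR168a-5p: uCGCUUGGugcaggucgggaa
AGO1 site: uucccgagcugcaUCAAGCUa
The annotated miR162b-3p and miR168b-5p have the same letters as miR162a-3p and miR168a-5p. miR162a-3p lies on the minus strand at chr5:2634936-2634956 and miR168a-5p on the plus strand at chr4:10578652-10578672. The DCL1 stretch is coding sequence that spans exons 12 and 13 of 20 on the plus strand of chr1:27522-27627, an interval that includes the intron between them. Over its 22 bases, 21 pair with miR162, and 1 adenine inside the seed match has no partner. The AGO1 stretch is coding sequence in exon 2 of 23, on the minus strand of chr1:17891529-17891549, with 18 Watson-Crick pairs, 1 G:U pair and 2 mismatches to miR168. When the spliced mRNAs of 31346 genes were searched for a complement of each whole microRNA on the transcript strand, counting each mismatch, G:U pair or single bulged base of the transcript as 1 departure, DCL1 was the only gene within 1 departure of miR162a-3p and AGO1 the only gene within 3 of miR168a-5p. The limits of 1 and 3 were the departures of the known DCL1 and AGO1 sites themselves and were not set beforehand. No other member came within 5 departures of either microRNA. The genes MIR162A, MIR162B, MIR168A, MIR168B, MIR403 and MIR838A were not analysed here. A match of letters is a description of the sequence and not a measurement of cleavage.

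None of the 10 genes was called differentially expressed in the nsra/b mutant. With edgeR's quasi-likelihood test, Benjamini-Hochberg adjustment over all features and an adjusted p-value under 0.01, 0 of 10 passed, where 8.86% of all tested features did. DESeq2 also called 0 of 10, beside 5.24% of its features, and limma voom 0 of 10, beside 8.68%. At an unadjusted p under 0.05 edgeR counted 3 of the 10 (SE, AGO1 and DCL3), where 26.7% of all features lay under that limit, and DESeq2 counted 2. At an adjusted p under 0.05 edgeR counted 2, AGO1 and DCL3, both lower in nsra/b, beside 14.9% of all features in either direction and 6.41% lower. For the same 2 genes the nsra/b libraries all lay below the Col-0 libraries in CPM. This was so for 14.1% of all features, with 30.0% separate in either direction. The log2 fold changes, nsra/b over Col-0, were negative for 7 members and positive for 3, with a median of -0.036, and the median over all tested features was 0.00. Their median absolute size was 0.044, against 0.077 over all tested features and 0.056 over the 12624 features at or above the level of the lowest member.

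A p-value that misses the threshold does not show that a transcript was equal in both genotypes, and the intervals give the sizes left. The 95% intervals of the 10 log2 fold changes lay between -0.34 and 0.14, that is changes between -21.0% and 10.1% in nsra/b, and with DESeq2 between -0.39 and 0.18. For 7 of the 10 genes the edgeR interval held 0, as did 8 of the 10 with DESeq2. In whole seedlings, fewer cells of a type and less RNA per cell cannot be told apart.

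**Figure D1:**
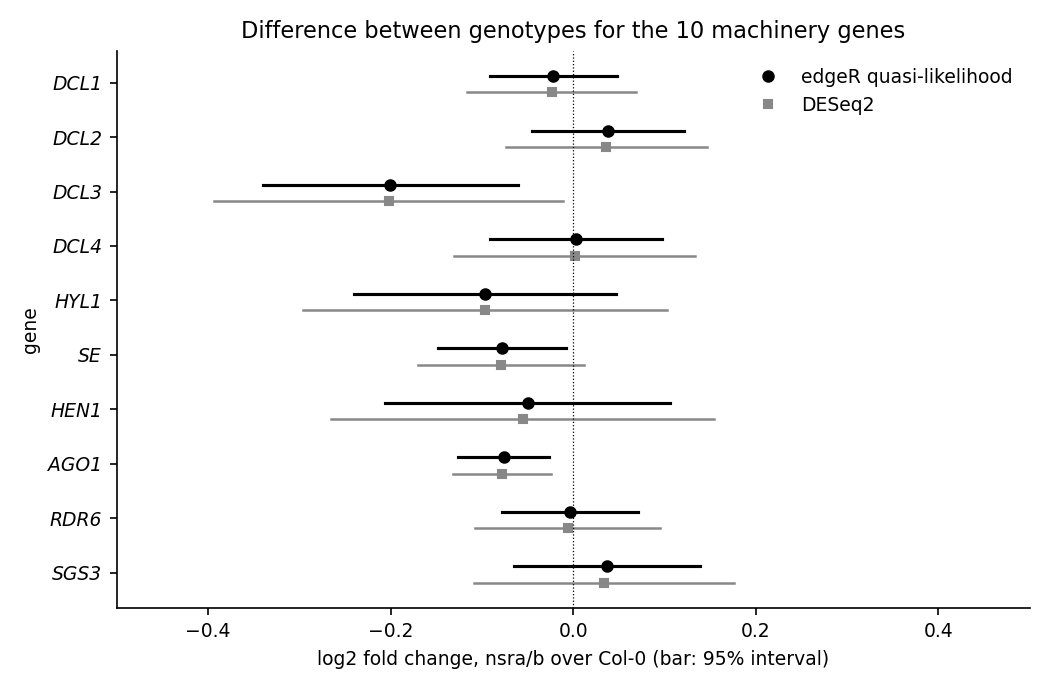
Log2 fold change of each of the 10 genes, nsra/b over Col-0 (x axis, log2 scale), with its 95% interval from edgeR (black circles) and DESeq2 (grey squares), from 3 libraries per genotype. The edgeR intervals stay between -0.34 and 0.14, and those of DCL3, SE and AGO1 do not reach 0.

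DCL1, the Dicer-like enzyme of microRNA biogenesis, had 55.4, 52.2 and 52.4 CPM in nsra/b and 53.9, 53.9 and 54.5 CPM in Col-0. The nsra/b libraries lay on both sides of the Col-0 libraries. Its log2 fold change was -0.022 (standard error 0.0343, 95% interval -0.092 to 0.048, adjusted p = 0.747 by edgeR's quasi-likelihood test), which spans changes of -6.15% to 3.39%. The gene (AT1G01040) lies on the plus strand of chr1:23121-31227 with 20 exons. MIR838 lies inside it on the same strand, and the antisense lncRNA AT1G03993, which covers 788 bp of it, had between 4 and 6 counts in nsra/b and between 3 and 5 in Col-0.

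DCL2 (AT3G03300, minus strand of chr3:767880-776214), best known in antiviral silencing and in secondary siRNAs when DCL4 is missing, had 44.5, 40.0 and 41.0 CPM in nsra/b and 42.3, 39.7 and 40.1 CPM in Col-0. In both genotypes replicate 1 was the highest library, and the ranges overlapped. The log2 fold change of DCL2 was 0.038 (standard error 0.0410, 95% interval -0.045 to 0.12, adjusted p = 0.613 by edgeR's quasi-likelihood test). DCL2 shares 847 bp with AT3G03305 on the same strand, which had 550, 685 and 687 counts in nsra/b and 617, 702 and 689 in Col-0, and reads from the shared stretch may be missing from both genes or placed on either.

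DCL3 (AT3G43920, plus strand of chr3:15753387-15760859), the Dicer of RNA-directed DNA methylation, had 10.6, 10.4 and 12.1 CPM in nsra/b and 12.2, 13.1 and 12.8 CPM in Col-0. The means were 11.0 ± 0.951 CPM in nsra/b and 12.7 ± 0.451 CPM in Col-0 (SD, n = 3 each). All nsra/b libraries were below all Col-0 libraries in CPM, but the highest nsra/b library was next to the lowest Col-0 library. As counts per exon length scaled to a common total (TPM), the genotypes overlapped. There nsra/b replicate 3 had 3.85 TPM and Col-0 replicate 1 had 3.81 TPM. These levels rest on 276, 319 and 364 counts in nsra/b and 328, 424 and 388 counts in Col-0. DCL3 had the largest difference of the 10 genes, a log2 fold change of -0.20 (standard error 0.0686, 95% interval -0.34 to -0.061, adjusted p = 0.0445 by edgeR's quasi-likelihood test), equal to a change of -13.0% with an interval of -21.0% to -4.12%. It did not pass the threshold, and DESeq2 gave an adjusted p of 0.248. With scaling by library size only, edgeR's quasi-likelihood test gave DCL3 an adjusted p of 0.0574. Without nsra/b replicate 3 the log2 fold change was -0.28 and passed with an adjusted p of 0.0098, and with each of the other libraries left out in turn it did not pass. The antisense gene AT3G43930 overlaps 43 bp of it and had 12, 9 and 13 counts in nsra/b and 4, 11 and 7 in Col-0.

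DCL4 (AT5G20320, minus strand of chr5:6859212-6869307), the main enzyme of trans-acting siRNA production, had 24.1, 23.4 and 24.1 CPM in nsra/b and 23.9, 24.1 and 23.4 CPM in Col-0. The libraries of both genotypes covered nearly the same range. Its log2 fold change was 0.0035 (standard error 0.0462, 95% interval -0.091 to 0.098, adjusted p = 0.976 by edgeR's quasi-likelihood test). Of the summed TPM (counts per exon length, scaled to a common total) of the DCL family, DCL1 made up 36.9% to 37.9% in nsra/b and 37.2% to 38.0% in Col-0, and DCL4 made up 17.9% to 18.6% in nsra/b and 17.9% to 18.4% in Col-0. DCL2 made up 33.9% to 35.5% in nsra/b and 32.6% to 34.3% in Col-0, and DCL3 8.96% to 10.6% in nsra/b and 10.5% to 11.4% in Col-0. The makeup of the family thus overlapped between genotypes for each of its members. These shares use the full exon length of DCL2, not corrected for the stretch it shares with AT3G03305.

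**Figure D2:**
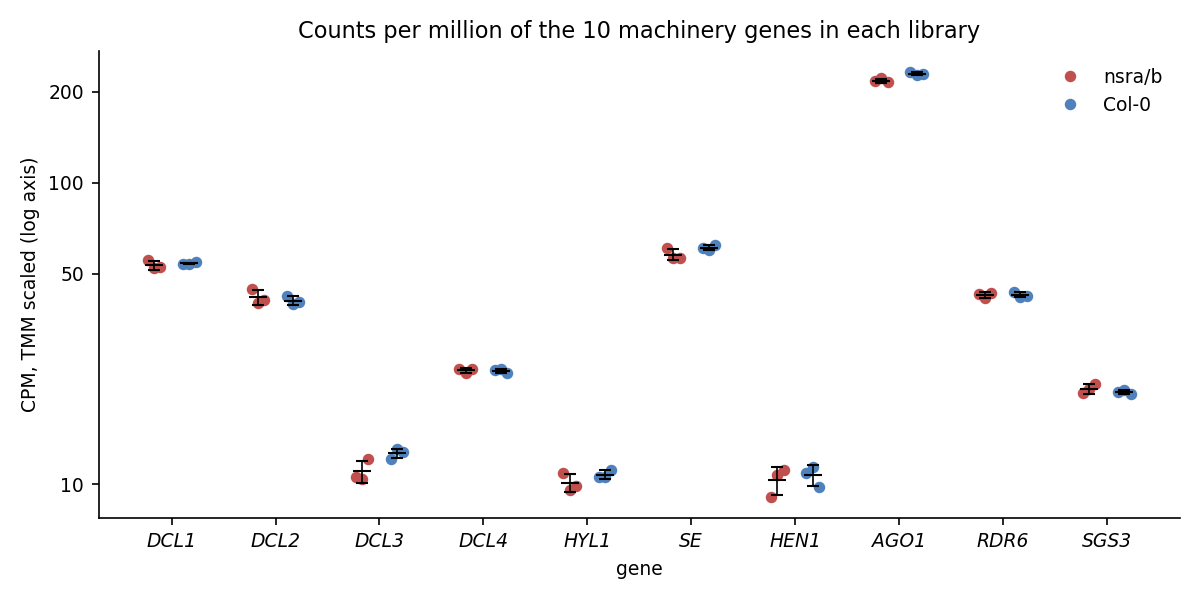
CPM of the 10 genes in each library (y axis, log scale), nsra/b in red and Col-0 in blue, with the mean and SD of 3 libraries in black. AGO1 is the highest in all libraries, at 215.8 to 221.8 CPM in nsra/b and 228.4 to 232.9 CPM in Col-0, and only AGO1 and DCL3 show no overlap between genotypes.

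HYL1 (AT1G09700, minus strand of chr1:3137649-3140353), a double-stranded RNA binding protein that helps DCL1 cut at the right place, had 10.9, 9.60 and 9.87 CPM in nsra/b and 10.6, 10.6 and 11.2 CPM in Col-0. Replicates 2 and 3 of nsra/b were below all Col-0 libraries, and replicate 1 was not. The log2 fold change of HYL1 was -0.096 (standard error 0.0703, 95% interval -0.24 to 0.047, adjusted p = 0.414 by edgeR's quasi-likelihood test).

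SE (AT2G27100, plus strand of chr2:11572397-11576658), a zinc finger protein that acts in microRNA processing and in splicing, had 60.6, 56.5 and 56.3 CPM in nsra/b and 60.9, 59.8 and 62.1 CPM in Col-0. Again replicates 2 and 3 of nsra/b were below the Col-0 range and replicate 1 lay within it. SE had a log2 fold change of -0.078 (standard error 0.0345, 95% interval -0.15 to -0.0074, unadjusted p = 0.0313, adjusted p = 0.137 by edgeR's quasi-likelihood test). The DESeq2 interval, -0.17 to 0.012, held 0.

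HEN1 (AT4G20910, minus strand of chr4:11185936-11191123), which methylates the ends of microRNAs and siRNAs, had 9.11, 10.7 and 11.1 CPM in nsra/b and 10.9, 11.5 and 9.82 CPM in Col-0. It varied most among replicates of the 10 genes, with coefficients of variation of 10.4% in nsra/b and 7.79% in Col-0, and the genotypes overlapped. Its log2 fold change was -0.050 (standard error 0.0767, 95% interval -0.21 to 0.11, adjusted p = 0.739 by edgeR's quasi-likelihood test).

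AGO1 (AT1G48410, minus strand of chr1:17885633-17892632), the main microRNA effector and the target of miR168, had 216.7, 221.8 and 215.8 CPM in nsra/b and 232.9, 228.4 and 228.7 CPM in Col-0. The mean was 218.1 ± 3.24 CPM in nsra/b and 230.0 ± 2.52 CPM in Col-0 (SD, n = 3 each), and every nsra/b library was below every Col-0 library. AGO1 is also the most deeply counted member, with 5637, 6815 and 6474 counts in nsra/b and 6269, 7412 and 6937 counts in Col-0, and it has the narrowest interval. The log2 fold change was -0.076 (standard error 0.0245, 95% interval -0.13 to -0.026, adjusted p = 0.0311 by edgeR's quasi-likelihood test), or a change of -5.14% with an interval of -8.35% to -1.80%. It did not pass the threshold, and DESeq2 gave an adjusted p of 0.0523. Leaving out single libraries gave log2 fold changes between -0.088 and -0.066.

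RDR6 (AT3G49500, minus strand of chr3:18348974-18353673), the RNA-dependent RNA polymerase of the trans-acting siRNA pathway, had 42.9, 41.4 and 43.0 CPM in nsra/b and 43.5, 41.9 and 42.3 CPM in Col-0. SGS3 (AT5G23570, plus strand of chr5:7942908-7946147), which stabilizes the template RNA for RDR6, had 20.0, 20.7 and 21.5 CPM in nsra/b and 20.3, 20.5 and 19.9 CPM in Col-0. For neither gene were the genotypes separate, although replicates 2 and 3 of nsra/b were above all Col-0 libraries for SGS3. The log2 fold change of RDR6 was -0.0036 (standard error 0.0367, 95% interval -0.078 to 0.071, adjusted p = 0.967 by edgeR's quasi-likelihood test). That of SGS3 was 0.037 (standard error 0.0502, 95% interval -0.065 to 0.14, adjusted p = 0.699 by the same test).

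Levels were compared between genes per length, as TPM over the summed exon length, with 37498 genes in the total. The order was the same in both genotypes. AGO1 averaged 95.5 ± 0.906 TPM in nsra/b and 100.1 ± 0.862 TPM in Col-0, far above SE with 34.7 ± 1.54 TPM in nsra/b and 36.4 ± 0.896 TPM in Col-0 (SD, n = 3 each). RDR6 followed with 15.8 TPM in both genotypes, then DCL1 with 13.5 TPM in nsra/b and 13.6 TPM in Col-0. DCL2 averaged 12.5 TPM in nsra/b and 12.1 TPM in Col-0. The lower part of the order was SGS3, HYL1, DCL4, HEN1 and DCL3, from 11.2 TPM for SGS3 down to 3.49 TPM for DCL3 in nsra/b and from 10.8 TPM down to 3.98 TPM in Col-0. The neighbours DCL1 and DCL2 overlapped in nsra/b, where the lowest DCL1 value was 13.2 TPM and the highest DCL2 value 13.3 TPM. All other neighbours in the order were separate in both genotypes. The exon length of DCL2 was not corrected for the 847 bp shared with AT3G03305, where reads may be missing or misplaced. The places of DCL1 and DCL2 without that stretch were not tested. With the gene span in place of the exons as length, DCL2 and SGS3 changed places.

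The summed level of the 10 genes was 494.9, 486.7 and 487.2 CPM in nsra/b and 511.3, 503.4 and 504.7 CPM in Col-0. AGO1 alone made up 43.8% to 45.6% of that sum in nsra/b and 45.3% to 45.6% in Col-0. Without AGO1 the sum was 278.2, 264.9 and 271.4 CPM in nsra/b and 278.4, 275.0 and 276.0 CPM in Col-0, so that 1 nsra/b library reached the Col-0 range. Replicates of nsra/b were more variable than those of Col-0 for all 10 genes, with median coefficients of variation of 3.92% in nsra/b and 1.89% in Col-0. Over all tested features the medians were 4.61% in nsra/b and 4.30% in Col-0, and 53.3% of features were more variable in nsra/b. Each coefficient rests on 3 libraries that the 10 genes share, so the genes are not independent observations of this spread.

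Around the 10 genes, 65 other protein-coding genes of the same pathways were taken in lists by function, of which 62 could be tested. The lists, too, were written with earlier results of these data known. Of these, 0 were higher and 4 lower in nsra/b at an adjusted p under 0.01, beside 5.28% higher and 3.58% lower over all features. The median log2 fold change of the 62 genes was -0.037, with 43 negative and 19 positive values. Over all tested features 10804 values were negative and 10802 positive. The 4 called genes were CDC5 and MAC3B among 17 microRNA processing cofactors, HST among 4 genes for microRNA export, Argonaute loading and turnover, and CLSY1 among 11 genes of RNA-directed DNA methylation. Among the 17 cofactors the median was -0.065 and 14 values were negative. Among the 11 genes of DNA methylation the median was -0.090 and 9 values were negative. None was called among 6 other Argonautes, 5 other RNA-dependent RNA polymerases, 4 other double-stranded RNA binding proteins, 5 genes of small RNA turnover and 10 secondary siRNA and RNA decay factors, with edgeR or with DESeq2. At an unadjusted p under 0.05, the limit that 26.7% of all features met, edgeR counted 1, 1, 0, 0 and 5 genes of these lists in the same order. AGO5, AGO9 and AT5G21030 of the Argonaute list had too few counts to test.

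**Figure D3:**
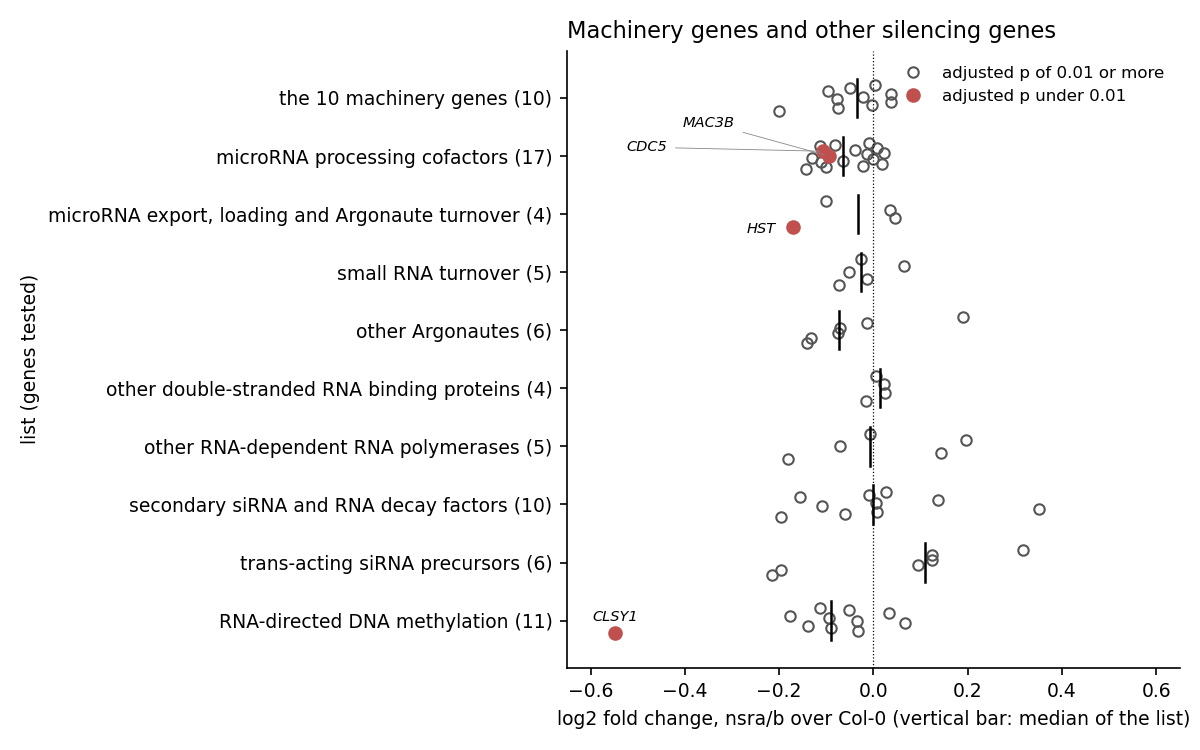
Log2 fold changes, nsra/b over Col-0 (x axis, log2 scale), of the 10 genes and of the other silencing genes by list, with the number of genes tested in brackets, a vertical bar at each median and filled red circles for an adjusted p under 0.01 by edgeR. The filled circles are CDC5, MAC3B, HST and CLSY1, and CLSY1 at -0.55 lies farthest from 0.

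CLSY1, a chromatin remodeler that brings RNA polymerase IV to part of its targets and so acts upstream of DCL3, had 12.3, 9.70 and 11.6 CPM in nsra/b and 16.5, 15.5 and 16.9 CPM in Col-0. The genotypes were clearly separate. CLSY1 fell by 0.55 on the log2 scale (standard error 0.0695, 95% interval -0.69 to -0.41, adjusted p = 4.32e-07 by edgeR's quasi-likelihood test), a change of -31.6%, with an adjusted p of 7.32e-07 by DESeq2. It passed in every alternative tried, with log2 fold changes of -0.62 to -0.45 when single libraries were left out. The other 10 genes of its list, which include the subunits NRPD1, NRPE1 and NRPD2 of the polymerases specific to this pathway, did not pass.

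HST, the nuclear export factor of microRNAs, had 23.0, 22.8 and 22.5 CPM in nsra/b and 25.2, 25.3 and 26.4 CPM in Col-0. CDC5, a DNA-binding splicing factor that promotes MIR gene transcription and pri-miRNA processing, had 137.3, 135.5 and 138.5 CPM in nsra/b and 146.4, 147.9 and 148.3 CPM in Col-0. MAC3B, a ubiquitin ligase of the same complex as CDC5, had 143.6, 143.2 and 142.0 CPM in nsra/b and 154.6, 150.7 and 152.8 CPM in Col-0. In each of these genes all nsra/b libraries were below all Col-0 libraries. By edgeR's quasi-likelihood test HST fell by 0.17 on the log2 scale (standard error 0.0462, adjusted p = 0.00941), CDC5 fell by 0.11 (standard error 0.0259, adjusted p = 0.00399) and MAC3B fell by 0.095 (standard error 0.0258, adjusted p = 0.00959). DESeq2 called none of them, with adjusted p-values of 0.0977 for HST, 0.0101 for CDC5 and 0.0254 for MAC3B. With any 1 library of either genotype left out, HST and MAC3B no longer passed, at adjusted p-values of 0.0121 to 0.0614 for HST and 0.0109 to 0.0569 for MAC3B. CDC5 no longer passed without nsra/b replicate 2 (adjusted p = 0.0282) or without Col-0 replicate 1 (0.0123), replicate 2 (0.0278) or replicate 3 (0.0210).

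**Figure D4:**
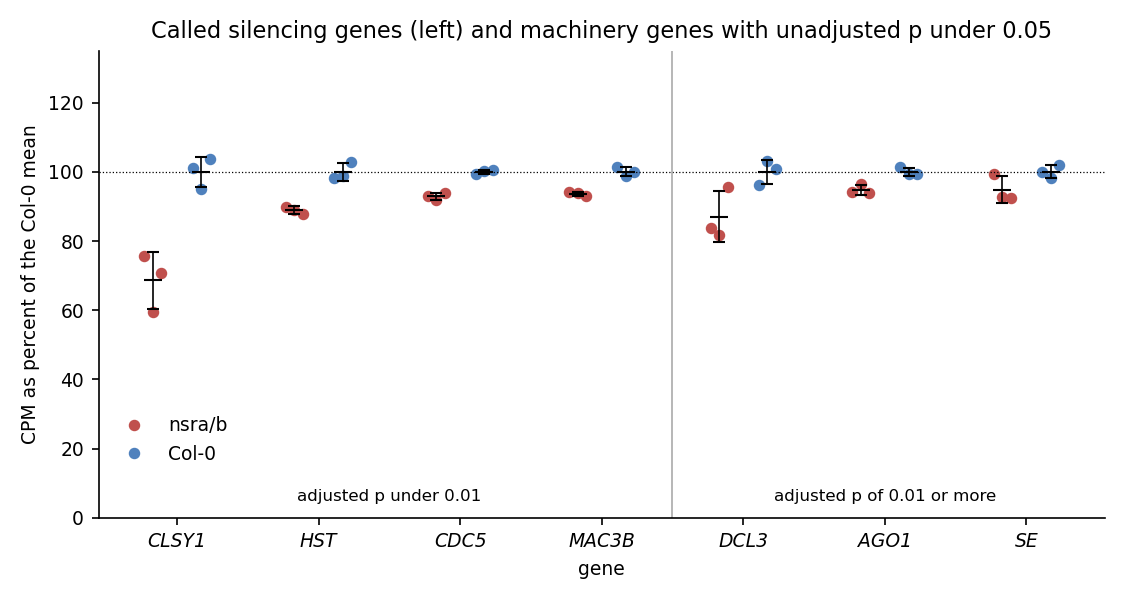
Level of the 4 called silencing genes (left of the grey line) and of DCL3, AGO1 and SE (right) in each library as percent of the Col-0 mean (y axis, starting at 0), nsra/b in red and Col-0 in blue, with the mean and SD of 3 libraries in black. CLSY1 lies lowest in nsra/b, with a change of -31.6% by edgeR's estimate, and the nsra/b value of SE replicate 1 lies within the Col-0 range.

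The genes with the smallest p in the lists with no call were AGO2, RDR2, DRB3, URT1 and XRN2. AGO2, which acts in antiviral defence and is a target of miR403, had 16.7, 18.3 and 18.2 CPM in nsra/b and 14.6, 16.2 and 15.8 CPM in Col-0. The genotypes did not overlap, and the log2 fold change of AGO2 was 0.19 (standard error 0.0579, adjusted p = 0.0219 by edgeR's quasi-likelihood test), opposite in sign to AGO1. DESeq2 gave AGO2 an adjusted p of 0.175. Without nsra/b replicate 1 AGO2 passed by edgeR, at 0.23 and an adjusted p of 0.0074. Without any other single library it did not pass, at adjusted p-values of 0.0235 to 0.128. RDR2, the partner of RNA polymerase IV, had a log2 fold change of -0.18, and the exonuclease XRN2 had -0.11, with adjusted p-values of 0.113 and 0.0206 by edgeR's quasi-likelihood test. DESeq2 gave adjusted p-values of 0.408 for RDR2 and 0.124 for XRN2. DRB3 had a log2 fold change of 0.022 and URT1, a uridylyltransferase that acts on unmethylated microRNAs, had -0.052.

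The TAS genes, whose transcripts are cut by microRNA-loaded Argonautes and then pass through SGS3, RDR6 and DCL4, give the polyadenylated precursors of this branch. All 6 were tested and 0 were called by edgeR, beside 8.86% of all features. At an unadjusted p under 0.05 there was 1 of 6, beside 26.7% of all features, and DESeq2 called none of the 5 for which it gave an adjusted p. Their median log2 fold change was 0.11, with 4 positive and 2 negative values. TAS1A had the smallest p, with 8.61, 8.37 and 8.50 CPM in nsra/b and 9.66, 9.83 and 9.66 CPM in Col-0. All its nsra/b libraries were lower, and the log2 fold change was -0.20 (standard error 0.0718, 95% interval -0.34 to -0.049, adjusted p = 0.0631 by edgeR's quasi-likelihood test). TAS1B, also with all nsra/b libraries lower, had a log2 fold change of -0.21 (standard error 0.106). TAS2, TAS3 and TAS1C had log2 fold changes of 0.13, 0.12 and 0.094. TAS4 had 0.32 (standard error 0.307), on only 10, 23 and 19 counts in nsra/b and 14, 12 and 17 in Col-0.

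The plantlet label was checked with lists of marker genes. Green tissue markers and the root markers other than NRT2.1, which had 3 to 13 counts per library, were present. The floral identity genes AP1, AG, AP3 and LFY had 8 counts or fewer in any library, with AP1 at 0 in all but 1. PI, also a floral identity gene, had 158 to 202 counts in nsra/b and 271 to 308 in Col-0. The summed level of 5 green tissue markers was 32411 to 33245 CPM in nsra/b and 33976 to 35683 CPM in Col-0, with CAB1 called lower and CA1 called higher. The summed level of 5 root markers was 52.1 to 57.4 CPM in nsra/b and 44.3 to 48.3 CPM in Col-0, with 1 of 4 tested, the endodermal gene CASP1, called higher. That of 5 dividing cell markers was 65.5 to 68.7 CPM in nsra/b and 69.9 to 72.7 CPM in Col-0, with 0 of 5 called. The floral list summed to 6.41 to 6.93 CPM in nsra/b and 9.77 to 10.5 CPM in Col-0, nearly all of it from PI, which was called lower. None of these summed ranges overlapped between the genotypes, but each sum is weighted to its most abundant genes. Gene by gene, 3 of 5 green, 2 of 4 root, 1 of 5 dividing cell and 1 of 1 floral markers tested were separate. Over all tested features this share was 30.0%. The separate root markers were CASP1 and CASP2, whereas EXPA7 and COBL9 overlapped. The part of the marker differences in the small differences of AGO1, DCL3 and the 4 called genes was not tested.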

How the data were processed

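Polyadenylated RNA of 3 nsra/b and 3 Col-0 libraries was analysed. The authors deposited raw counts per gene, made by aligning read pairs with tophat, 1 alignment kept per read, and by counting with SummarizeOverlap, by strand and in Union mode. The submitters' processing notes name TAIR10. In that mode a read on more than 1 gene of a strand can be dropped. Names, positions and sequences are from the RefSeq annotation of TAIR10.1.

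Counts were normalized by TMM and filtered with filterByExpr (minimum count 10, minimum total 15) in edgeR 4.0.16 (R 4.3.3), and 21606 of 44200 features were tested for genotype alone with the quasi-likelihood test, at a Benjamini-Hochberg adjusted p under 0.01. DESeq2 1.42.0, limma 3.58.1 (voom), other filters and scalings, a replicate block, a biological coefficient of variation fixed at 0.1 (with edgeR's likelihood ratio test), other thresholds and leaving out each library were the alternatives. The functions were tested on simulated data. Precision depends on the depth of 25936176 to 32578330 counts per library, on the spread between replicates and on 3 libraries per genotype. Intervals are 95%.

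The rule for the 10 genes lists identifiers only, but it and the lists were written with earlier results of these data known. Named were all 10 genes, every listed gene called and, in lists without a call, the gene with the smallest p, and others were named to describe a list, after their values were seen. KETCH1 was left out because the annotation has that name neither as the symbol nor as a synonym of its identifier and gives another symbol. Same-numbered libraries did not deviate together (r of -0.0119, 0.0254 and 0.0558), so numbers were not taken as pairs. Libraries of 1 genotype differed by more than counting noise (chi-square over degrees of freedom 1.37 to 1.93) and were counted separately.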

Additional observations from a re-analysis of the deposited data

How the results depend on the processing

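Of the 10 genes, 0 were called under every alternative except the threshold of an adjusted p under 0.05, which called 2, and single libraries left out, which called 0 to 1. The count over all features (1914) became 1087 with DESeq2, 203 with the biological coefficient of variation fixed at 0.1, 3218 at an adjusted p under 0.05, 494 with Bonferroni adjustment and 1290 to 1859 with single libraries left out. The other silencing genes called (4) became 2 with scaling by library size only, 1 with DESeq2, 1 with the fixed coefficient, 8 at an adjusted p under 0.05, 1 with Bonferroni adjustment and 1 to 3 with single libraries left out. With the replicate block, 0 of the 10 genes, 4 other silencing genes and 2093 features were called. The signs of some small log2 fold changes, but not of all, depended on single libraries. With 1 library left out, DCL2 ran from -0.0058 to 0.071, DCL4 from -0.0088 to 0.019 and HEN1 from -0.11 to 0.026. In the same runs RDR6 ran from -0.014 to 0.015 and DRB3 from -0.039 to 0.085. RDR6 was at 0.0041 with scaling by library size only. The cause was not tested. The other 6 of the 10 genes kept their sign in all alternatives, but with 1 library left out the values ran from -0.048 to -0.0056 for DCL1, 0.0096 to 0.060 for SGS3 and -0.15 to -0.059 for HYL1. HEN1, HYL1 and DCL3 had the fewest counts of the 10 genes, 237 to 424 per library, and the widest intervals. The parts of depth and of replicate spread in that width were not tested.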
